A study of Mus musculus with 12 samples.

Results

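The 48 genes described here encode the machinery that copies DNA in S phase, and they were followed in 12 RNA libraries of cultured mouse regulatory T cells (Tregs), 3 libraries in each of 4 groups. They are the rows of the expression table whose symbol stands on a fixed list of replication and S phase genes, 48 of the 55228 genes in the table. The list goes by function and uses no measured value, but it was chosen with earlier results of these data known. All 48 passed the filter on low expression, a mean of at least 1 TPM (transcript abundance corrected for length and library total) over the 12 libraries, as did 15043 genes in all.

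Tregs were sorted as Foxp3.GFP+CD25+ cells from the pooled lymph nodes of 16 NOD mice carrying a GFP reporter of Foxp3, activated, and transduced on day 2 with a retroviral vector that expresses the surface reporter Thy1.1. EV Tregs carried the empty vector, and for 1G12t and 3A10t Tregs the same vector also encoded a tether, a fusion of the orthogonal IL-2 receptor β chain to an orthogonal IL-2 (1G12 or 3A10). The groups EV no IL-2, 1G12t and 3A10t were deprived of IL-2 from day 4, EV+IL-2 was not, and RNA came from Thy1.1+ cells of day 9. The paper states that EV+IL-2 was a part of the EV-transduced culture that stayed in recombinant mouse IL-2. The main fit below does not pair the EV groups. The 3 replicates of a group are separate sorts and cultures of 1 pool of cells, not separate animals, so the p-values measure the spread between cultures. In every library the Treg markers Foxp3, Il2ra, Ctla4 and Ikzf2 were present, with group means between 146 and 699.7 TPM.

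Chromosomes are copied once per cell cycle because loading and firing of the replicative helicase are separated in time. In G1 the origin recognition complex, Cdc6 and Cdt1 load the MCM2-7 helicase onto origins (licensing). At the G1/S border cyclin E and E2F activity rise, and Cdc45 and the GINS complex join MCM2-7 to form the active CMG helicase, which the polymerases, the PCNA sliding clamp and its RFC loader follow. Geminin and the Dtl ubiquitin ligase then keep origins from being licensed again, and Claspin, Chk1, Timeless and Tipin guard the forks. IL-2 is the main growth factor of cultured Tregs, and many of the genes below are textbook targets of E2F.

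The promoters of 37 of the 48 genes were in the RefSeq promoter table used here (GRCm38.p6). In the window around the gene's start, 17 of the 37 (45.9%) held at least one of the E2F words TTTCCCGC, TTTGGCGC, TTTCGCGC or TTTGCCGC, read on both strands, against 2.60% of all 27025 genes in the table. Overlapping words were counted separately, and 2.26% of all 32851 promoters held one. Of 23 genes of a mitosis list, 1 (4.35%) held such a word. In the other lists used below it was 8 of 31 further replication genes (25.8%) and 2 of 16 fork repair genes (12.5%). Of 11 nucleotide precursor genes 0 held one. The cell cycle homology word TTTGAA was found in 16.2% of the replication genes, 69.6% of the mitosis genes and 20.2% of all genes, and CCAAT in 59.5%, 78.3% and 41.1%. The stretches of 4 genes are shown, from Cdc6, which changed most below, to Mcm6, which was not called, chosen after values were seen among those whose stretch crosses no exon. E2F words are in capitals, 5′ to 3′ on the strand of the gene.
Cdc6 (chr11:98907993-98908040, + strand): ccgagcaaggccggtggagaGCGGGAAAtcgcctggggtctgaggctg
Mcm5 (chr8:75109336-75109387, + strand): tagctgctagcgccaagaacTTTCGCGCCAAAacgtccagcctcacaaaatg
Pola1 (chrX:93632266-93632313, − strand): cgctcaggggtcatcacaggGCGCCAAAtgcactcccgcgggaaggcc
Mcm6 (chr1:128359725-128359835, − strand): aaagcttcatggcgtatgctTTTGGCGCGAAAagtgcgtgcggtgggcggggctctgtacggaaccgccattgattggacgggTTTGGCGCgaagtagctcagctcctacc
In GENCODE M21 (GRCm38) no exon lies under any of these windows. Those of Mcm5, Pola1 and Mcm6 are upstream of the annotated gene, and that of Cdc6 lies inside the annotated span of Cdc6. Overlapping words make up the 12 capitals of Mcm5 and the first 12 of Mcm6, which held 3 words in all.

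Values below are TPM rescaled between libraries, and fold changes are differences of log2(TPM + 1), a scale on which genes of low TPM appear to change less than they do. How many reads lie behind a TPM cannot be read from it, so depth is unknown and the spread of 3 libraries is the only error given. Genes with a TPM over 0 numbered 30393, 32422 and 36239 in the EV+IL-2 libraries and 37930 to 43285 in all others, without overlap. The part of this difference in the results below was not tested. The rescaling factors lay between 0.854 and 1.09. The median SD of the 48 genes within a group was, on the log2 scale, 0.098 for EV no IL-2, 0.12 for EV+IL-2, 0.20 for 1G12t and 0.17 for 3A10t. Their summed level was lowest in replicate 3 in each of the 4 groups, the number that marks 1 of the 3 separately sorted parts. A gene was called at a Benjamini-Hochberg adjusted p under 0.05 over all 15043 genes in limma.

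The first question was how EV Tregs kept in IL-2 differed from EV Tregs without it. In EV+IL-2, 36 of the 48 genes were called higher and 0 lower than in EV no IL-2, where 8.17% of all genes tested were called higher and 5.13% lower. Their median log2 fold change was 0.87, from −0.050 to 3.10, against −0.014 over all genes tested. In 42 genes all 3 EV+IL-2 libraries lay above all 3 EV no IL-2 libraries, as they did in 19.6% of all genes. The 48 genes took 0.195% to 0.218% of the deposited TPM of a library in EV+IL-2 and 0.151% to 0.155% in EV no IL-2. These are bulk samples, in which a change in the number of cells in S phase and a change in RNA per cell cannot be told apart.

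**Figure D1:**
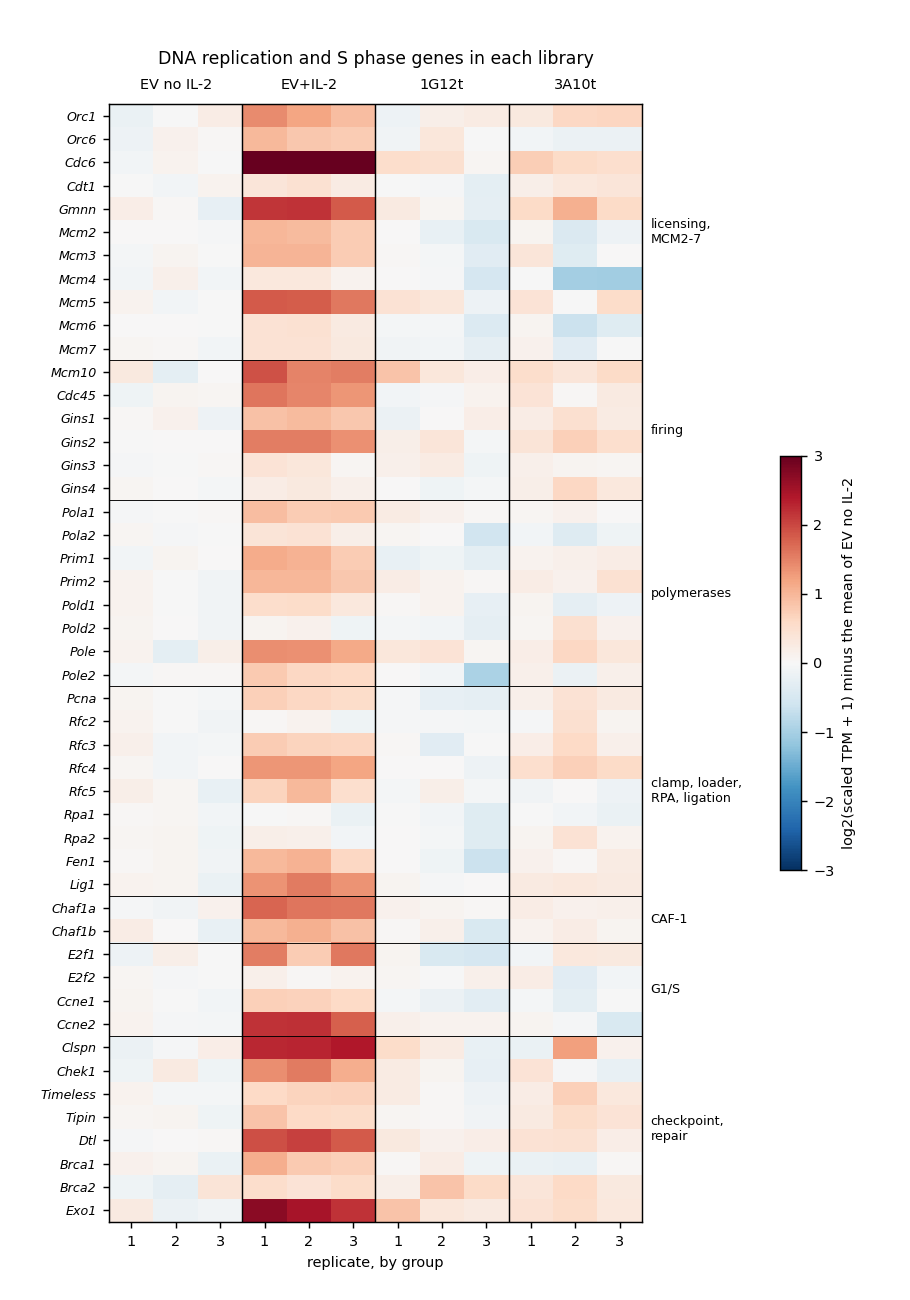
Heat map of the 48 genes (rows, grouped by role) in the 12 libraries (columns, by group and replicate); colour gives log2(scaled TPM + 1) minus the mean of EV no IL-2. The 3 EV+IL-2 columns are red for most genes, with Cdc6 deepest, whereas Rpa1, Rfc2, Pold2 and E2f2 stay pale and Mcm4 is blue in 3A10t replicates 2 and 3.

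Licensing genes. Of 11 genes, 9 rose in EV+IL-2, with a median log2 fold change of 0.90. Cdc6, the ATPase that brings Cdt1 and MCM2-7 to the origin (chromosome 11 from 98907801 to 98923940), changed most of all 48 genes. It was at 0.806, 1.06 and 0.910 TPM in the 3 EV no IL-2 libraries and 17.1, 15.3 and 14.3 in EV+IL-2, a 16.8-fold ratio of means (change of 3.10 in log2, SE 0.15, limma adjusted p = 1.4e-06). The tethered groups lay close to EV no IL-2, at 1.78, 1.70 and 0.998 TPM in 1G12t and 2.21, 1.89 and 1.73 in 3A10t. Every EV+IL-2 library was thus far above the highest of the other 9. Geminin (Gmnn), the inhibitor of Cdt1, followed with a rise from 9.92 ± 1.73 to 43.8 ± 5.52 TPM (mean ± SD, n = 3; log2 fold change 2.04). Mcm5 rose from 16.8 ± 1.13 to 58.7 ± 5.48 TPM, a log2 fold change of 1.75. Orc1, an ATPase subunit of the origin recognition complex, rose 3.47 times in its mean TPM and Orc6 1.84 times. Mcm2 and Mcm3 rose by 0.90 and 0.93, close to each other.

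Cdt1 and Mcm7 were the weakest calls among the licensing genes. Cdt1, the licensing factor that Geminin restrains, was at 20.4, 19.3 and 22.1 TPM without IL-2 and 26.8, 28.6 and 24.7 with it (change of 0.36 in log2, limma adjusted p = 0.035). Mcm7 went from 62.2 ± 2.94 to 81.6 ± 4.54 TPM (change of 0.39 in log2, limma adjusted p = 0.049). With the replicate number as a block neither was called (adjusted p = 0.056 for Cdt1 and 0.050 for Mcm7, limma), and over the 22 alternatives the adjusted p ran from 0.0025 to 0.13 and from 0.0013 to 0.17. Mcm4 and Mcm6 were not called. Mcm6, the most abundant licensing gene, was at 112, 112 and 110.4 TPM in EV no IL-2 and 150.5, 152 and 134.9 with IL-2 (change of 0.39 in log2, limma adjusted p = 0.15). The groups did not overlap for Mcm6. Mcm4 was at 46.5, 54.9 and 46.6 TPM against 60.97, 61.5 and 52.8, so that its groups overlapped (change of 0.24 in log2, limma adjusted p = 0.63).

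The 6 subunits of MCM2-7 act as 1 ring with a single copy of each, yet their RNA levels were unequal. In EV no IL-2 the order was Mcm6, Mcm7, Mcm4, Mcm3, Mcm2 and Mcm5. Mcm6 exceeded Mcm5 by 6.64 times in TPM, a unit that corrects for length. The part of cDNA priming and amplification in such ratios between genes, here and below, was not tested. In EV+IL-2 the highest exceeded the lowest, now Mcm2, by 2.95 times, and Mcm5 stood next after Mcm6 and Mcm7. Mcm4, Mcm3 and Mcm5 differed there by less than their SD (58.4 ± 4.89, 57.6 ± 5.59 and 58.7 ± 5.48 TPM). The order in 1G12t and 3A10t was that of EV no IL-2, with ratios of 5.02 and 4.29. The sum of the 6 was 295 ± 8.18 TPM in EV no IL-2, 452 ± 34.2 for EV+IL-2, 268 ± 37.4 for 1G12t and 259 ± 61.1 for 3A10t.

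**Figure D2:**
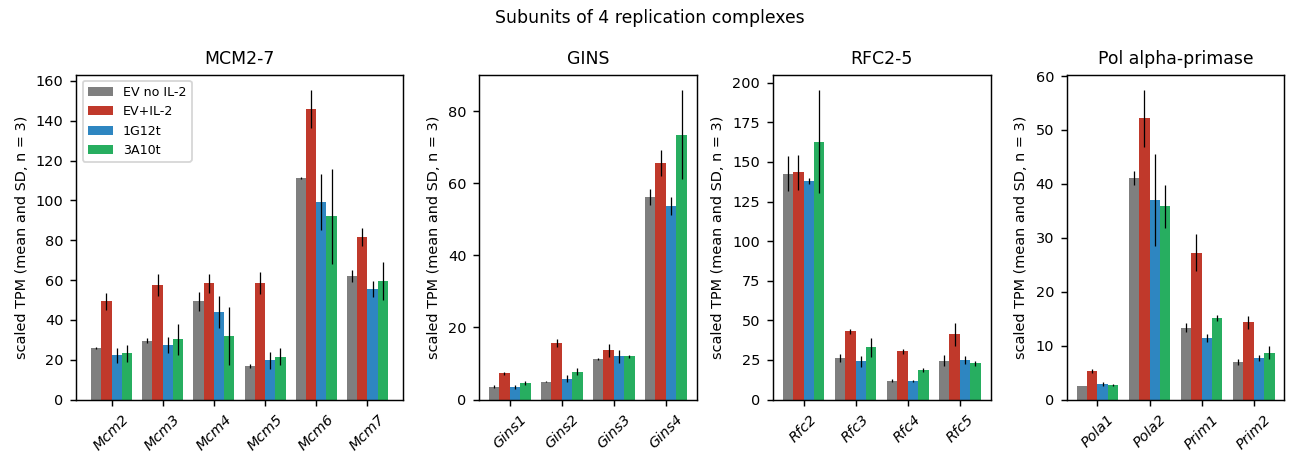
Mean scaled TPM (bars, with SD of 3 libraries) of the subunits of MCM2-7, GINS, RFC2-5 and polymerase α-primase in the 4 groups. Mcm5, the lowest MCM subunit in EV no IL-2, went from 16.8 to 58.7 TPM in EV+IL-2, while Rfc2 was at 142 and 143 TPM.

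Helicase activation. Of 6 genes, 4 rose in EV+IL-2 (median log2 fold change 1.17). Mcm10, which acts in origin firing and binds the helicase, was at 1.47, 0.624 and 1.003 TPM in EV no IL-2 and 6.54, 4.58 and 4.84 with IL-2 (change of 1.65 in log2, SE 0.22, limma adjusted p = 5.3e-04). Cdc45, the CMG component thought to limit firing, went from 4.81 ± 0.478 to 15.1 ± 1.49 TPM, a log2 fold change of 1.47. The 4 GINS subunits, also partners in 1 complex, split into a pair that rose and a pair that was not called. Gins2 rose from 4.91, 5.01 and 4.98 TPM to 16.2, 16.3 and 14.3 (log2 fold change 1.47), and Gins1 from 3.50 ± 0.430 to 7.25 ± 0.387 TPM (0.88). Gins3 had a log2 fold change of 0.27 and Gins4 of 0.22, with adjusted p = 0.17 and adjusted p = 0.23 (limma). Gins4 was by far the most abundant, at 58.3, 56.5 and 53.7 TPM without IL-2 and 65.8, 69.1 and 62.1 with it. Both of these genes had all 3 EV+IL-2 libraries above EV no IL-2.

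Polymerases and primase. Of 8 genes, 5 rose (median log2 fold change 0.75). Pole, the catalytic subunit of the leading-strand polymerase ε, changed most, from 2.66, 1.80 and 2.88 TPM to 8.02, 7.87 and 6.56 (change of 1.31 in log2, SE 0.16, limma adjusted p = 3.9e-04). Its partner Pole2 went from 10.6 ± 0.454 to 17.5 ± 1.41 TPM but was not called (change of 0.67 in log2, limma adjusted p = 0.067), with one 1G12t library at 4.95 TPM against 10.7 and 10.0 in the other two. Prim1 and Prim2, the primase that lays down RNA primers, rose by 0.97 and 0.93. Pola1, the catalytic subunit of polymerase α, rose by 0.82, and Pola2, which was 16.3 times as abundant as Pola1 in EV no IL-2, had a log2 fold change of 0.33 (adjusted p = 0.21, limma). In polymerase δ, the lagging-strand enzyme, Pold1 rose by 0.47, a call made in 16 of 22 alternatives, with an adjusted p of up to 0.12 in limma. Pold2 was at 61.7, 58.9 and 53.7 TPM without IL-2 and 61.1, 63.9 and 52.8 with it, with full overlap (change of 0.026 in log2, limma adjusted p = 0.95).

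Clamp, clamp loader, single-strand binding and ligation. Of 9 genes, 6 rose (median log2 fold change 0.70). Lig1, the ligase that seals Okazaki fragments, rose from 10.5, 10.4 and 8.33 TPM to 26.3, 30.4 and 26.01 (change of 1.41 in log2, SE 0.098, limma adjusted p = 9.1e-06). Fen1, the nuclease that trims the same fragments, rose by 0.87. Pcna (chromosome 2 from 132249162 to 132253314) was among the most abundant genes and rose from 117 ± 6.63 to 181 ± 10.9 TPM, a log2 fold change of 0.63. The annotation names pseudogenes of Pcna, so reads may be shared with them. In the clamp loader Rfc4, Rfc5 and Rfc3 rose by 1.28, 0.72 and 0.70, whereas Rfc2 was at 142 ± 11.1 TPM without IL-2 and 143 ± 11.3 with it (change of 0.0088 in log2, limma adjusted p = 0.997). Rfc2 exceeded Rfc4 by 11.9 times in EV no IL-2 and by 4.71 times with IL-2. Neither subunit of replication protein A, which coats single-stranded DNA, was called. Rpa1 had the highest level of the 48 genes in all 4 groups, at 290.1, 294.5 and 270.5 TPM in EV no IL-2 and 285, 292.5 and 250 with IL-2 (change of −0.050 in log2, limma adjusted p = 0.84). Rpa2 had a log2 fold change of 0.081.

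Chromatin assembly and G1/S regulators. Both subunits measured of CAF-1, which deposits histones behind the fork, rose. Chaf1a went from 1.87, 1.74 and 2.17 TPM to 8.79, 7.95 and 7.80 (change of 1.65 in log2, SE 0.11, limma adjusted p = 6.7e-06), and Chaf1b from 19.4, 16.7 and 14.01 to 33.6, 35.6 and 31.4 TPM (0.97). Of the 4 G1/S regulators 3 rose. Cyclin E2 (Ccne2), which activates Cdk2 at the G1/S border, was at 3.51, 3.11 and 3.06 TPM in EV no IL-2 and 18.1, 18.3 and 13.7 with IL-2 (change of 2.06 in log2, SE 0.15, limma adjusted p = 1.2e-05). Its paralog cyclin E1 (Ccne1) started higher, at 25.8 ± 1.34 TPM, and rose to 41.5 ± 1.83 (0.67). The activator E2f1 rose from 3.33 ± 0.507 to 9.92 ± 3.13 TPM (1.29), with 1 EV+IL-2 library at 6.31 TPM and the others at 11.6 and 11.9. The other activator among these 4 regulators, E2f2, was at 40.2, 37.6 and 38.8 TPM without IL-2 and 43.6, 39.9 and 41.9 with it (change of 0.10 in log2, limma adjusted p = 0.69). E2f2 was 11.66 times as abundant as E2f1 without IL-2 and 4.21 times with it.

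Checkpoint, fork protection and repair. Of 8 genes, 7 rose (median log2 fold change 1.10). Exo1, a nuclease of mismatch repair and end resection (chromosome 1 from 175880581 to 175913489), was at 1.35, 0.702 and 0.808 TPM without IL-2 and 11.7, 9.66 and 7.65 with it (change of 2.45 in log2, SE 0.21, limma adjusted p = 2.5e-05). Claspin (Clspn), the adaptor through which ATR activates Chk1, rose from 0.794 ± 0.229 to 7.86 ± 0.456 TPM (2.31), and Chek1 itself from 1.42 ± 0.416 to 5.18 ± 0.980 (1.35). Dtl, the substrate receptor that marks Cdt1 for destruction, rose by 1.95. Timeless and Tipin, which form a fork protection complex, rose by the same amount, 0.66 each. Tipin was the most abundant of the group, with 56.5, 57.5 and 49.8 TPM in EV no IL-2 and 98.7, 82.8 and 80.2 with IL-2. Brca1 rose by 0.86, and lost its call without EV no IL-2 replicate 3 or EV+IL-2 replicate 1 (adjusted p up to 0.060, limma). Brca2, its partner in homologous recombination, was at 5.14, 4.60 and 7.74 TPM against 8.60, 7.83 and 8.88 (change of 0.49 in log2, limma adjusted p = 0.12).

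**Figure D3:**
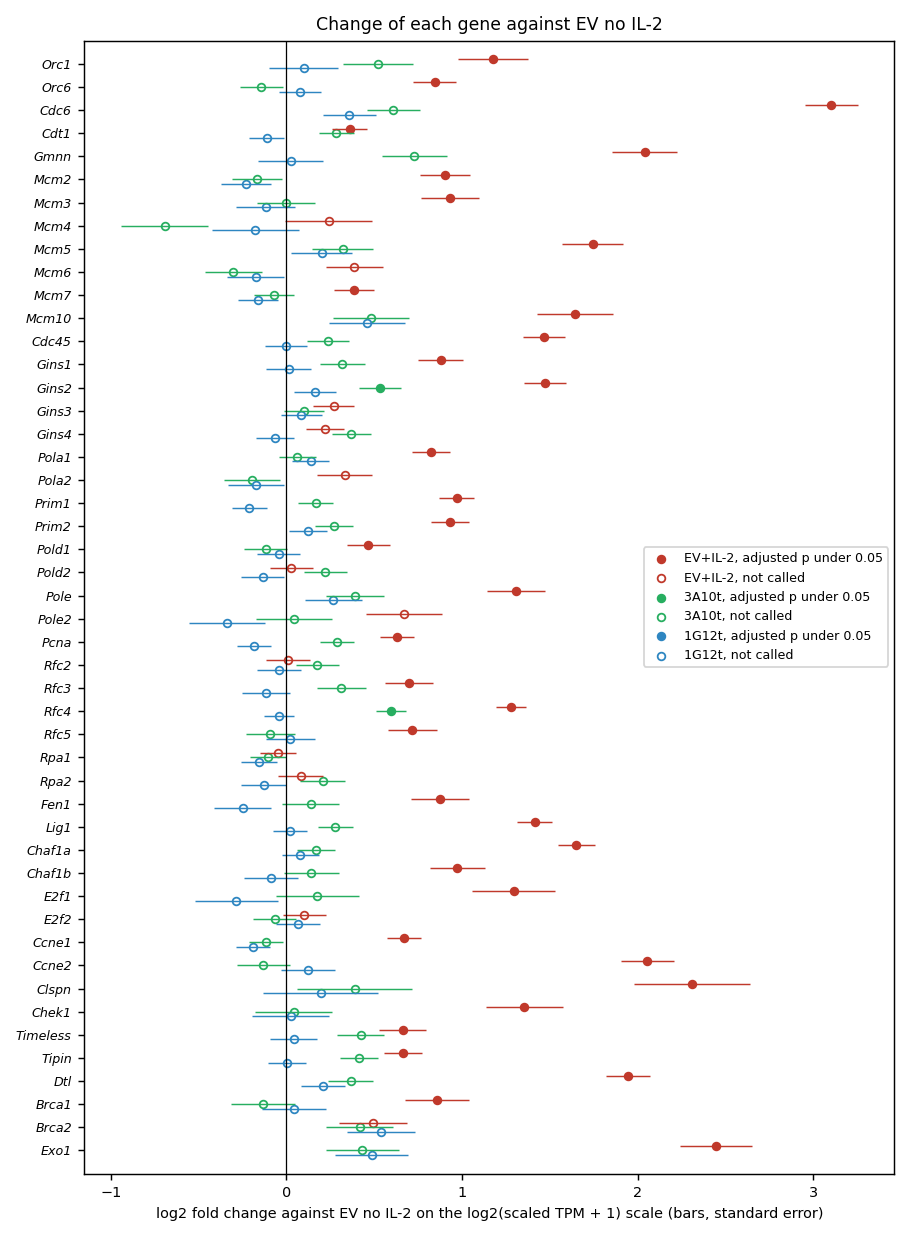
Difference in log2(TPM + 1) from EV no IL-2 (points, with SE) of the 48 genes in EV+IL-2 (red), 3A10t (green) and 1G12t (blue), filled where the adjusted p was under 0.05. There are 36 filled red points, 2 filled green points (Gins2 and Rfc4) and no filled blue point.

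Genes with low levels had larger log2 fold changes with IL-2 than abundant ones. To keep the level apart from the contrast, the genes were ordered by their mean in 1G12t. All 14 genes under 4 TPM there were called higher in EV+IL-2, with a median log2 fold change of 1.50. Between 4 and 20 TPM 12 of 15 were called (median 0.97), between 20 and 50 TPM 7 of 10 (0.68), and over 50 TPM 3 of 9 (0.22), namely Pcna, Tipin and Mcm7. Over the 48 genes Spearman's rho between level and log2 fold change was −0.77, given as a description, since the genes share all libraries. The 12 genes that were not called include no gene under 4 TPM. In EV no IL-2, 9 genes had a mean under 2 TPM and none did in EV+IL-2, where the lowest was Brca1 at 2.88 TPM. The 5 most abundant genes held 48.8% of the TPM of the 48 in EV no IL-2 and 39.8% with IL-2. Whether genes with an E2F word differed from the others was not tested. Of the 17 with a word 12 were called (median log2 fold change 0.70), of the 20 without one 16 (0.87), and of the 11 whose promoter was not read, 8 were called (0.93). Of the stretches shown above, that of Mcm6 held the most words. Those stretches were chosen with the calls known, so nothing on words and calls can be read from them.

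**Figure D4:**
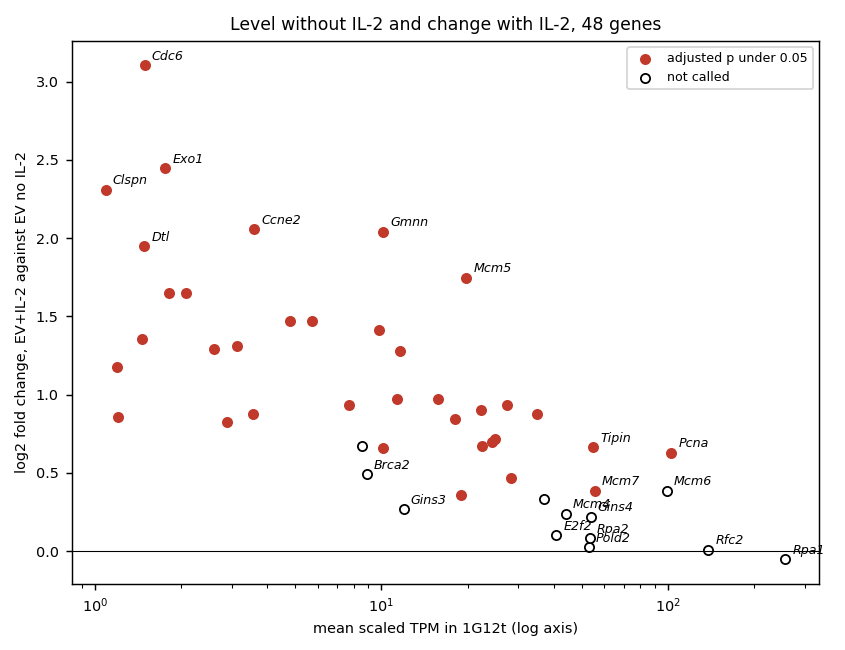
Mean scaled TPM in 1G12t (x, log axis), a group outside the contrast, against the log2 fold change of EV+IL-2 against EV no IL-2 (y) for the 48 genes, filled where called. Points fall from Cdc6 at 1.49 TPM and 3.10 to Rpa1 at 257 TPM and −0.050.

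Sharing of reads with neighbouring genes can affect some of these values. In GENCODE M21, 13 of the 48 genes overlap another protein-coding gene, mostly on the other strand, and the sources used here do not state that the counting kept strand. Examples are Rfc4 with Eif4a2, Gins2 with Gse1, Mcm7 with Cops6, Fen1 with Tmem258 and Cdc45 with Ufd1, while Cdt1 and Pole2 lie on the same strand as a read-through gene (Gm20388 and Gm49384). None of the partners was called in EV+IL-2 or 3A10t against EV no IL-2. The log2 fold change was −0.15 for Eif4a2, 0.17 for Gse1, 0.18 for Cops6, 0.19 for Tmem258 and −0.16 for Ufd1.

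The tethered constructs were compared with EV no IL-2 to ask whether either replaced IL-2 in the medium. In 3A10t Tregs 2 of the 48 genes were called higher and 0 lower, where 0.452% of all genes were called higher and 1.6% lower. The median log2 fold change was 0.19 (−0.69 to 0.73), against 0.026 over all genes, with 34 genes (70.8%) positive and 18 (37.5%) at an unadjusted p under 0.05. Over all genes these shares were 52.9% and 26%. In 21 genes all 3 libraries of 3A10t lay above EV no IL-2, compared with 13.3% of all genes. In 1G12t Tregs 0 of the 48 were called in limma, and 3 (6.25%) had an unadjusted p under 0.05, a share near that of all genes (7.04%). Across all genes 0.0133% were called higher and 0.00665% lower in 1G12t. The median was 0.0079, from −0.34 to 0.54, and 25 genes were positive and 23 negative. The 3 comparisons with EV no IL-2 share its 3 libraries, so their values are not independent of each other.

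Rfc4, the clamp loader subunit (chromosome 16 from 23113943 to 23127737), was the firmest of the calls in 3A10t. Its EV no IL-2 libraries were at 12.6, 11.2 and 12.2 TPM, against 17.5, 20.1 and 18.3 in 3A10t, 11.98, 12.1 and 10.8 in 1G12t and 31.6, 31.3 and 28.5 in EV+IL-2. The 3A10t libraries lay between those of EV no IL-2 and EV+IL-2 with no overlap on either side, while 1G12t overlapped EV no IL-2. Against EV no IL-2 the log2 fold change in 3A10t was 0.60 (SE 0.085, adjusted p = 0.015, limma), and it was called in 18 of 22 alternatives, with adjusted p from 0.0010 to 0.23. Its call was lost when EV no IL-2 replicate 2, replicate 3 of that group or 3A10t replicate 3 was left out, and in a fit of the 6 libraries alone. Its overlapping neighbour Eif4a2 had a log2 fold change of −0.65 in the same comparison (adjusted p = 0.10, limma).

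Gins2 (chromosome 8 from 120578633 to 120589304) stood at the threshold. Its 3A10t libraries, at 6.78, 8.77 and 7.49 TPM, were above all of EV no IL-2 (change of 0.54 in log2, SE 0.12, limma adjusted p = 0.04996), but it was called in only 4 of 22 alternatives (adjusted p from 0.0050 to 0.23), and the removal of any one library other than 3A10t replicate 1 or 1G12t replicate 3 lost it. The 1G12t libraries were at 5.71, 6.70 and 4.77 TPM and overlapped EV no IL-2. Gmnn (17.2 ± 3.77 TPM in 3A10t, change of 0.73 in log2, limma adjusted p = 0.068) was called with the replicate block (adjusted p = 0.036, limma, with a range of 0.019 to 0.23 over the alternatives). Cdc6 (0.61), Orc1 (0.52), Tipin (0.41) and Gins4 (0.37) had the 3 libraries of 3A10t above EV no IL-2 and were not called.

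Within 3A10t the libraries stood apart in the MCM genes. Mcm4 was at 48.99 TPM in replicate 1 and at 23.6 and 23.3 in replicates 2 and 3, against 46.5 to 54.9 in EV no IL-2 (change of −0.69 in log2, limma adjusted p = 0.12). Mcm6 was at 118 TPM in replicate 1 and 71.2 and 86.6 in replicates 2 and 3 (log2 fold change −0.30). Without 3A10t replicate 1, 11 genes were called against EV no IL-2, 9 higher (Cdc6, Cdt1, Gins2, Gins4, Gmnn, Pcna, Rfc4, Timeless and Tipin) and 2 lower (Mcm4 and Mcm6), against 0 when 3A10t replicate 3 or either of EV no IL-2 replicates 2 and 3 was left out. The share of all genes called with single libraries left out is not given here, so these counts cannot be set against it. The top 10 genes by level held 8.85% to 13.5% of a library's TPM, and 3A10t replicate 2 had the highest share and the lowest rescaling factor. With TPM as deposited the median of the 48 genes in 3A10t was 0.063, with the median of all genes lower by −0.12 than after rescaling, and 1 gene was called. CD8, B and NK cell markers summed to at most 6.51, 16.6 and 0.520 TPM in any library, and their part in the split was not tested.

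In 1G12t the 3 genes at an unadjusted p under 0.05 were Brca2, Exo1 and Cdc6, named after their values were seen. Brca2 was at 6.61, 11.1 and 8.996 TPM (change of 0.54 in log2, limma adjusted p = 0.70) and Exo1 at 2.51, 1.44 and 1.32 (0.49, adjusted p = 0.70, limma). Mcm10 was at 2.62, 1.53 and 1.29 TPM (0.46, adjusted p = 0.71, limma). In each of these genes the libraries of 1G12t overlapped those of EV no IL-2. A p that misses the threshold does not show that the levels were the same.

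**Figure D5:**
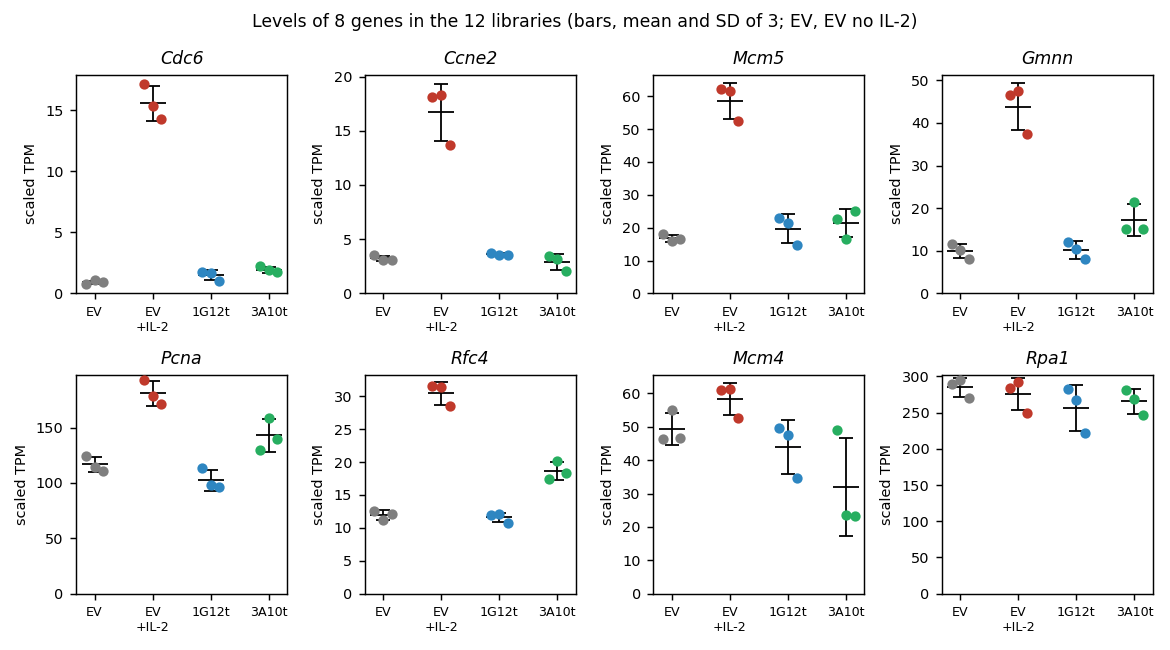
Scaled TPM of 8 genes in each of the 12 libraries (points) with mean and SD (bars) for the 4 groups. Rfc4 in 3A10t (17.5 to 20.1 TPM) lies between EV no IL-2 and EV+IL-2, Cdc6 and Ccne2 are high only in EV+IL-2, and Mcm4 splits within 3A10t.

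The tethers were then compared directly. In 3A10t 3 of the 48 genes were called higher than in 1G12t and 0 lower, where 1.3% of all genes were called higher and 2.96% lower, and the median log2 fold change was 0.15, against −0.017 over all genes (0.0027 and −0.18 with TPM as deposited). Rfc4 differed by 0.64 (adjusted p = 0.0088, limma), and this call was made in 21 of 22 alternatives. Pcna, at 130.1, 159 and 140.0 TPM in 3A10t and 113.5, 97.95 and 96.3 in 1G12t, differed by 0.47 (adjusted p = 0.035, limma). Cdt1, at 23.4, 25.7 and 26.7 TPM against 20.2, 20.1 and 16.7, differed by 0.40 (adjusted p = 0.04975, limma). The 2 groups did not overlap in any of the 3. Pcna was called in 10 and Cdt1 in 4 of 22 alternatives, with adjusted p from 0.0045 to 0.28 and from 0.013 to 0.28. With the replicate block 5 genes were called. Cdt1 was no longer one of them (adjusted p = 0.056, limma), and Gmnn, Gins4 and Tipin were added (adjusted p = 0.032, adjusted p = 0.04994 and adjusted p = 0.048, limma). Without 3A10t replicate 1 the count was 13. Without any other single library it was 1 or 2. These counts, too, are given without the share of all genes called.

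Against EV+IL-2 both tethered groups were lower in most of the 48 genes. In 3A10t 35 genes were called lower and 0 higher (13% of all genes lower, 10.3% higher), with a median log2 fold change of −0.77. In 1G12t 39 were called lower and 0 higher (10.9% lower, 9.69% higher), with a median of −0.86. Cdc6 fell furthest below EV+IL-2 in both, with log2 fold changes of −2.50 in 3A10t and −2.75 in 1G12t. Ccne2 was lower by −2.19 and −1.93 on the same scale, and Exo1 in 3A10t by −2.01. Mcm6, which was not called between the EV groups, was lower than EV+IL-2 in 3A10t (−0.69, adjusted p = 0.013, limma) and in 1G12t (−0.56, adjusted p = 0.032, limma). In 3A10t 13 genes were not called against EV+IL-2. Among them were Cdt1, Timeless and Tipin, with log2 fold changes of −0.076, −0.24 and −0.25, and Rfc3 (−0.38) and Pole2 (−0.63). In 1G12t Cdt1, Timeless and Tipin were called lower, by −0.47, −0.62 and −0.66, as were Rfc3 (−0.81) and Pole2 (−1.01). The difference between the tethers was not called for Timeless, Rfc3 or Pole2 or, without the replicate block, for Tipin. These comparisons share the EV+IL-2 libraries.

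Other genes of the cell cycle were counted from lists that were not picked for how they moved in these samples, although earlier results of these data were known. Some of their genes passed the filter only through EV+IL-2, with a mean under 1 TPM over the 9 other libraries, and are left out of the counts here, as decided once values were known (none of the 48 did). By the same rule 14870 of all genes tested were left. Of these, 1170 were called higher in EV+IL-2 and 772 lower, with a median log2 fold change of −0.018. Of 33 further replication genes, without Dscc1, 13 rose in EV+IL-2 and 0 fell, with a median log2 fold change of 0.21. The highest were Pclaf, the PCNA-associated factor, from 2.28 to 30.6 TPM (3.27), the histone chaperone Asf1b (2.28) and Chtf18 of the alternative clamp loader (1.87). Of 12 genes for nucleotide precursors 9 rose, led by Rrm2, the small subunit of ribonucleotide reductase (2.80), thymidine kinase Tk1 (2.37) and thymidylate synthase Tyms (1.70), and the median was 0.72. Of 18 E2F, Rb and MuvB regulators, without the repressors E2f7 and E2f8, 6 rose (median 0.17), among them Foxm1 (1.62), which drives genes of G2 and mitosis. Of 19 fork repair genes, without Fancd2 and Brip1, 5 rose and 1 fell (median 0.066). Rad54l, a DNA translocase of homologous recombination, rose by 1.88, and Rad1 of the 9-1-1 checkpoint clamp fell by 0.39. The call of Rad1 was made in 18 of 22 alternatives, with an adjusted p of up to 0.092 in limma. Of 25 mitosis genes, without Bub1 and Ttk, 25 rose, with a median of 2.54 against 0.87 for the 48 replication genes, led by Birc5 (3.79), Ccna2 (3.43) and Ccnb2 (3.37).

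Markers of other cells were low in all 4 groups, with exceptions. In EV+IL-2 the summed level of the 6 erythroid markers was 24.5 to 38.7 TPM, against 1.76 to 4.02 in the other 9 libraries. Nearly all of it was Hba-a1 and Hba-a2, at 18.2 and 12.4 TPM, while Alas2, which starts heme synthesis in erythroid cells, was at 0.177 TPM. The myeloid sum of 442 to 764 TPM was almost wholly Cst3, and Lyz2, S100a8, S100a9 and Csf1r were each under 1 TPM on average in every group. The part of either in the results above was not tested.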

How the data were processed

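RNA of 12 Treg libraries was amplified from oligo-dT primed cDNA and read as 50-bp pairs. Per the labels, the submitters' processing notes name Cutadapt 1.18, STAR 2.5.3, RSEM 1.3.0 and DESeq2 1.26 with mm10/GRCm38. The authors deposited TPM, 1 column per library, for 55228 genes. The counts were not used here. TPM are scaled for transcript length and library total and keep no depth, so depth is unknown. All 12 columns were mapped to labels.

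TPM were divided by median-of-ratios factors over genes averaging 1 TPM or more. The 15043 genes at or above that level were tested with limma 3.58.1 (lmFit, eBayes with a trend; R 4.3.3) on log2(TPM + 1), 1 mean per group, all 12 libraries. Benjamini-Hochberg adjustment was over all genes tested. The code was tested on simulated data. Python 3.11.15 with matplotlib 3.10.9 read RefSeq promoters, GENCODE M21 and drew the figures. No pair of libraries held identical values.

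The members and lists were chosen with earlier results of these data known. Values in every library are given for the genes with the largest and smallest change and the highest level in each role group, and for those called in a tethered group. Up to 3 genes with the largest change are named from each other list (some are not reported here), and genes named outside these rules were chosen after their values were seen. The alternatives were pseudocounts of 0.1 and 5, no filter or a cutoff of 5 TPM, the deposited TPM without rescaling, quantile normalization, the replicate block, no trend, arrayWeights, only the 6 libraries compared, each library left out, and the study's call rule (unadjusted p under 0.01, log2 fold change beyond 0.25).

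By the labels a replicate number marks a shared sort, so the numbers pair the libraries. Over the 18 pairs with the same number, deviations from the group means had a mean correlation of 0.041 (−0.11 to 0.15), with 3 over 0.1, and over pairs with different numbers −0.020.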

Additional observations from a re-analysis of the deposited data

How the results depend on the processing

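With single libraries left out, the number of genes called ran from 32 to 37 in EV+IL-2 against EV no IL-2, 30 to 36 in 3A10t against EV+IL-2 and 35 to 41 in 1G12t against EV+IL-2. It ran from 0 to 11 in 3A10t against EV no IL-2 and from 1 to 13 in 3A10t against 1G12t, both highest without 3A10t replicate 1, and stayed at 0 in 1G12t against EV no IL-2 under every one of the 23 alternatives. With a mean TPM of at least 5, which left 35 of the 48 genes, 23 were called in EV+IL-2, 22 in 3A10t against EV+IL-2, 1 in 3A10t against EV no IL-2 and 7 in 3A10t against 1G12t. The counts for 3A10t against EV no IL-2 and against 1G12t were 14 (12 higher, 2 lower) and 9 (7 higher, 2 lower) with arrayWeights, 7 and 8, all higher, by the study's call rule (2.83% and 5.29% of all genes higher, 6.67% and 7.06% lower), 0 and 0 with only the 6 libraries compared, and 1 and 1 without a filter or without a trend. Against EV no IL-2 the count was 1 with a pseudocount of 5, TPM as deposited or quantile normalization, and against 1G12t it was 5 with quantile normalization. The cause was not tested. Apart from the study's call rule, these counts are given without the share of all genes called in the same setting. With the replicate block the counts were 34 in EV+IL-2, 3 in 3A10t against EV no IL-2 and 5 against 1G12t, and the block changed no other count. Pold2 in EV+IL-2 changed sign with TPM as deposited (−0.035) and quantile normalization (−0.010), as did Rfc2 (−0.053 and −0.054). With single libraries left out, Pold2 ran from −0.032 to 0.11, Rfc2 from −0.048 to 0.074 and Rpa1 from −0.094 to 0.021. Cdt1 in 3A10t against EV+IL-2 was 0.069 with quantile normalization.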

Other observations

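Outside the 48 genes, few cell cycle genes were called in 3A10t, and they were named after their values were seen. Rbl2, which encodes the pocket protein p130 that holds E2F targets silent in resting cells, was at 78.6, 67.4 and 58.5 TPM in 3A10t, below the 9 other libraries, whose group means were 129 TPM (EV no IL-2), 121 TPM (EV+IL-2) and 126 TPM (1G12t). It was lower than in EV no IL-2 (change of −0.92 in log2, limma adjusted p = 0.0070) and than in 1G12t (−0.88, adjusted p = 0.0086, limma), each in 21 of 22 alternatives. Lin54, a DNA-binding subunit of the MuvB complex, was at 9.18 TPM in 3A10t and 12.5 in EV no IL-2 (−0.41, adjusted p = 0.044, limma), a call made in 6 of 22 alternatives.

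Pclaf was at 3.90, 6.48 and 5.26 TPM in 3A10t and 2.46, 2.17 and 2.22 in EV no IL-2 (change of 0.90 in log2, limma adjusted p = 0.032). It was called in 11 of 22 alternatives, with adjusted p from 0.0010 to 0.23 in limma, and was lost without 3A10t replicate 2 or 3 or any one library of EV no IL-2 or EV+IL-2. Top2a, the topoisomerase that untangles replicated DNA, was at 10.9, 10.7 and 12.3 TPM against 7.24, 7.96 and 7.53 (0.52, adjusted p = 0.033, limma), called in 11 of 22 alternatives. Between 3A10t and 1G12t, Pole4, a small subunit of polymerase ε, was higher in 3A10t (0.43, adjusted p = 0.032, limma), as were the mitotic cyclins Ccnb1 (0.71, adjusted p = 0.039, limma) and Ccnb2 (0.90, adjusted p = 0.045, limma). These 3 were called in 10, 9 and 7 of 22 alternatives. Of the 27 mitosis genes, here with Bub1 and Ttk, 1 was called higher in 3A10t against EV no IL-2, with a median log2 fold change of 0.34. Across all genes 0.452% were called higher and 1.6% lower, with a median of 0.026. In 1G12t 0 of the 27 were called, with a median of 0.046. Across all genes 0.0133% were called higher and 0.00665% lower there, with a median of −0.0038.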
